A study of Drosophila melanogaster with 4 samples.

Results

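The cytosolic ribosomal protein genes of Drosophila melanogaster are described here by where peaks of the transcription factor Chinmo lay relative to their start sites. The members were the protein-coding genes of the Ensembl annotation of Release 6 whose symbol begins with RpL or RpS followed by a digit or P. There were 92 of them among 13945 protein-coding genes on the chromosome arms. By symbol alone, 54 were counted with the large subunit (RpL) and 38 with the small subunit (RpS), including relatives whose symbol ends in -like. Chromatin immunoprecipitation with sequencing (ChIP-seq) had been carried out on whole embryos aged 6 to 24 h of a transgenic strain that makes Chinmo, a BTB zinc finger factor, fused to enhanced GFP. Chromatin had been sheared by sonication, and the study's description gives a GFP antibody while the antibody label names Chinmo. All 4 libraries were biological replicates of that 1 genotype and stage, so there was no second condition, and the libraries listed as possible controls were not analysed here. The embryos were whole, and a peak therefore cannot be assigned to any 1 cell type.

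Ribosomal proteins assemble with ribosomal RNA into the subunits that carry out translation, and their genes are expressed in every growing cell. In flies, loss of 1 copy of many of these genes slows development and thins the bristles, the Minute phenotype, and such cells are outcompeted by their neighbours in mosaic tissue. Many of their promoters start transcription at a polypyrimidine TCT initiator in place of the usual initiator, and the DNA replication-related element (DRE), bound by the factor Dref, is a promoter motif of many housekeeping genes.

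For each library the authors deposited a thresholded list of peaks, which passed an analysis of the irreproducible discovery rate (IDR), and a much longer ranked list. The thresholded lists held 3435, 4415, 2222 and 3038 peaks on the chromosome arms in replicates 1 to 4, and the ranked lists 39707, 27009, 30017 and 34066. The read depth is unknown, since the lists hold no read counts. Each peak's signal value was the authors' own and served only to rank peaks within 1 list; the percentile used below is the share of a list's peaks whose signal was no higher, so that the strongest peak has 100. A gene was counted in a list when the summit of a peak was at most 1000 bp from an annotated transcription start site (TSS) of that gene, and distances are negative upstream of the nearest TSS. A gene without a listed peak was not measured as unbound.

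The promoter stretches below were taken from RefSeq's copy of the fly genome, Release 6 (dm6). They are shown as examples of promoters with a summit in every library and of promoters with none. The first 5 belong to members with their own TSS nearest to the strongest summit in all 4 thresholded lists. The last 3 are a selection from the 8 members with no summit in any ranked list. RpLP0, another of these 8, holds ATCGAT from 250 bases before to 50 bases after its most upstream TSS. The 3 shown therefore do not stand for all 8. RpL15 and RpL21 lie 0.843 and 1.27 Mb from the centromeric end of their arm sequence. Each stretch runs 5' to 3' on the gene's strand, from up to 100 bases before the most upstream TSS to the 10th base of the transcript. It starts later where an exon of a neighbouring gene lies closer. Capitals mark the DRE (TATCGATA), its core ATCGAT, the core of Motif 1 (GGTCACAC, GTGTGACC on the opposite strand, recognised by the factor M1BP) and a TCT initiator, wherever the whole motif lies in the stretch; RpS29, RpL10, RpL15 and RpL21 have none there, although RpL10 and RpL15 have a TCT initiator that runs past its end.
RpL32 (dm6 chr3R:30046152-30046261, minus strand): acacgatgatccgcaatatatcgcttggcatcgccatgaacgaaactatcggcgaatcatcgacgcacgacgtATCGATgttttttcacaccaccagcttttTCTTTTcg
RpS2 (dm6 chr2L:9897543-9897652, minus strand): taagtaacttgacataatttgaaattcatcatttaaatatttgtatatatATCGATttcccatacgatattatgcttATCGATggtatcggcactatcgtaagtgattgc
RpS30 (dm6 chr3R:20850416-20850525, plus strand): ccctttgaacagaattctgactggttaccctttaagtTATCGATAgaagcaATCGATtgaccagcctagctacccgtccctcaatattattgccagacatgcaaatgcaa
RpS29 (dm6 chr3R:9777944-9778051, plus strand): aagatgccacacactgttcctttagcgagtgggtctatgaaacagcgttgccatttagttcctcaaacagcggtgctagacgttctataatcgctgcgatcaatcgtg
RpL7 (dm6 chr2L:10200975-10201013, plus strand): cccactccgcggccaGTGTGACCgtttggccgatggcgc
RpL10 (dm6 chr3L:23095462-23095571, minus strand): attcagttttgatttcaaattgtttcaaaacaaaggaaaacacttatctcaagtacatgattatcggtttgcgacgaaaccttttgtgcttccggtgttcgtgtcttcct
RpL15 (dm6 chr3L:27267155-27267264, plus strand): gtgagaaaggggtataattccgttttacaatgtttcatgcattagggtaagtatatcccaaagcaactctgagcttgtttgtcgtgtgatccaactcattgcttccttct
RpL21 (dm6 chr2L:22247866-22247975, minus strand): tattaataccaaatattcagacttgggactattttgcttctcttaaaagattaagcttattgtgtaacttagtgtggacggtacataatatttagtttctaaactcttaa

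Chinmo summits lay near a minority of the ribosomal protein genes in the thresholded lists. In replicates 1 to 4, 18, 22, 16 and 24 of the 92 genes had one, or 19.6%, 23.9%, 17.4% and 26.1%, against 16.2%, 20.8%, 13.2% and 17.4% of all protein-coding genes. The mean share was 21.7% ± 3.97 for ribosomal protein genes and 16.9% ± 3.14 for all protein-coding genes (SD, n = 4 libraries). In every library the share of ribosomal protein genes was the higher, although the ranges over libraries overlapped, 17.4% to 26.1% for ribosomal protein genes and 13.2% to 20.8% for all genes. Replicate 3, which has the shortest thresholded list, had the lowest share for both.

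Few of these genes carried a summit repeatedly. Of the 92 members, 58 were in no thresholded list, 11 in 1, 9 in 2, 5 in 3 and 9 in all 4. Thus 34 genes, or 37.0%, were in at least 1 list, against 27.0% of all genes, and 14, or 15.2%, were in at least 3, against 13.3%. Those in all 4 lists were 9.78% of the members and 8.03% of all genes. The excess over the background was thus largest for genes found in a single list or in a pair of lists. The large subunit had 7 of 54 genes in at least 3 lists and the small subunit 7 of 38.

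The longer ranked lists held summits near most ribosomal protein genes. The counts were 74, 69, 59 and 73 genes in replicates 1 to 4, or 80.4%, 75.0%, 64.1% and 79.3%, against 66.8%, 57.9%, 59.6% and 66.1% of all genes. The mean was 74.7% ± 7.45 for ribosomal protein genes and 62.6% ± 4.50 for all protein-coding genes (SD, n = 4 libraries). All 4 ranked lists held 50 of the 92 genes, or 54.3%, against 43.6% of all genes, and at least 3 held 65, or 70.7%, against 56.9%. With a distance limit of 200 bp, chosen after the data were seen, the thresholded lists held 13.0%, 14.1%, 13.0% and 17.4% of ribosomal protein genes, against 11.9%, 14.9%, 9.29% and 12.8% of all genes, so that replicate 2 had the lower share for ribosomal protein genes. At that limit the ranked lists held 58.7%, 51.1%, 40.2% and 63.0% of ribosomal protein genes, against 45.5%, 40.0%, 35.1% and 42.1% of all genes.

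**Figure D1:**
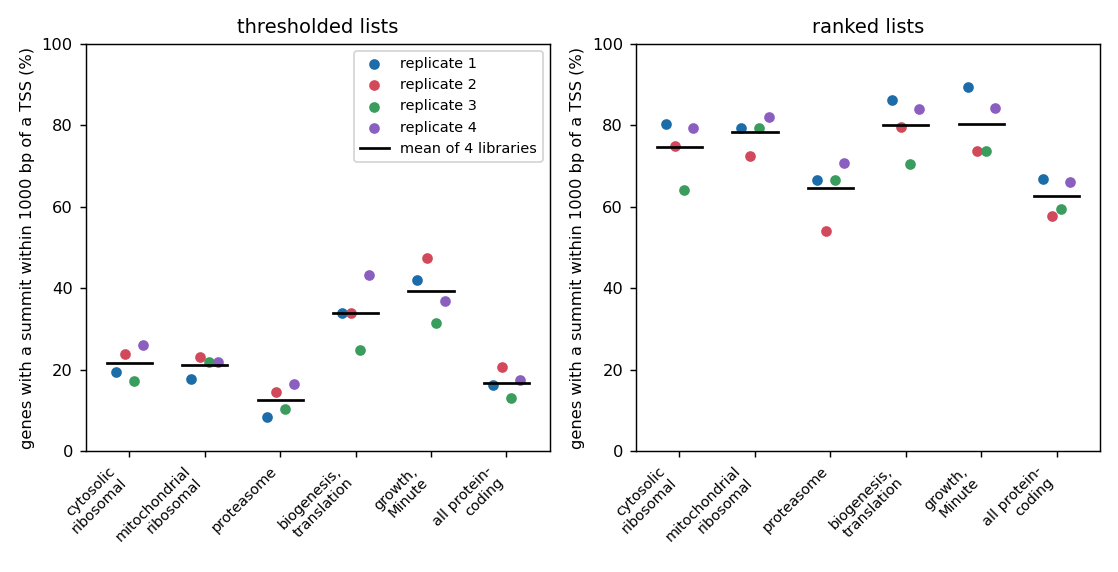
Share of genes (y axis, %) with a summit within 1000 bp of a TSS in each library's thresholded list (left) and ranked list (right), for cytosolic ribosomal protein genes, the comparison lists and all protein-coding genes; points are the 4 libraries and bars their means. Ribosomal protein genes averaged 21.7% and all protein-coding genes 16.9% in the thresholded lists, and 74.7% and 62.6% in the ranked lists.

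RpL32, a large-subunit protein gene often used as a reference transcript in flies (FBgn0002626, 3R, minus strand, 30045229 to 30046161), had the highest mean percentile of the family. Its percentiles were 88.0, 94.8, 99.0 and 99.4 in replicates 1 to 4 of the thresholded lists, a mean of 95.3 ± 5.30 (SD, n = 4), with ranks 414, 229, 24 and 18. In replicate 1 RpS30 ranked above it, at 307. The summits lay between genes, 66, 67, 69 and 46 bp upstream of its most upstream TSS. All 4 libraries thus placed the summit in the same short stretch, at 19 to 42 bp from the ATCGAT capitalised in its promoter above. The TSS of CG7943 lies 309 bp away on the other side of the same intergenic stretch.

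RpS2, a small-subunit protein known in flies as string of pearls for its role in oogenesis (FBgn0004867, 2L, minus strand, 9896265 to 9897552), was next by mean percentile among the genes in at least 3 lists. Its percentiles were 57.3, 74.1, 88.6 and 97.0, a mean of 79.3 ± 17.4 (SD, n = 4), with summits 51, 46, 33 and 33 bp upstream. Replicate 1 was the lowest of the 4 libraries for RpS2, as it was for RpL32. The summits of replicates 1 and 2 lay 1 and 0 bp from an ATCGAT and those of replicates 3 and 4 each lay 10 bp from one. The nearest other TSS, that of Bka, is 2234 bp away.

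RpS30 and RpS29, both small-subunit proteins of which RpS30 is made as a fusion with a ubiquitin-like domain, had summits at their own start. RpS30 (FBgn0038834, 3R) had percentiles of 91.1, 77.6, 50.1 and 62.8, a mean of 70.4 ± 17.8 (SD, n = 4), with summits from 8 bp upstream to 30 bp downstream. RpS29 (FBgn0261599, 3R) had 61.1, 66.1, 8.51 and 58.6, a mean of 48.6 ± 26.9, with summits from 30 bp upstream to 1 bp downstream. In both genes replicate 3 was the lowest library, and in RpS29 it stood far below the other libraries. The nearest ATCGAT lay 16 to 42 bp from the RpS30 summits and 15 to 46 bp from the RpS29 summits. In RpS30 the site nearest to the replicate 2 summit, 36 bp away, is capitalised above. The site nearest to the summits of replicates 1, 3 and 4 lies past the end of that stretch. The RpS29 stretch also ends before its ATCGAT.

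RpL7, a large-subunit protein gene (FBgn0005593, 2L), shares a promoter of 30 bp with Ripalpha, which is transcribed away from it. Its percentiles were 43.8, 60.05, 36.3 and 71.96, a mean of 53.0 ± 16.0 (SD, n = 4), and its summits lay within 16 bp of its TSS in every library. At this spacing the peak cannot be given to either gene. No ATCGAT lay within 1000 bp of any of the 4 summits, and the promoter stretch holds the core of Motif 1.

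In the remaining 4 genes found in all 4 lists, a neighbour's TSS was the nearest to some or all of the summits. RpL36A (FBgn0031980, 2L), a large-subunit protein gene, had percentiles of 70.7, 86.6, 30.6 and 56.2, with summits 464 to 578 bp upstream of its TSS. RpS28a (FBgn0039739, 3R), 1 of 3 genes for this small-subunit protein, had 83.5, 93.0, 33.1 and 80.6, with summits 410 to 565 bp downstream of its TSS, in an exon of Mgat2 in replicates 1 to 3 and 17 bp from the Mgat2 TSS in replicate 4. In both genes replicate 2 was the highest library and replicate 3 the lowest. RpL26 (FBgn0036825, 3L) had 46.2, 57.3, 57.3 and 84.9, and its libraries were divided: the strongest summit lay at its own start region, inside an intron, in replicates 1 and 3 and in an exon of CG3902 in replicates 2 and 4.

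Another 5 genes were in 3 of the 4 lists. RpS10b (FBgn0285947, X), the small-subunit protein with a second copy called RpS10a, had percentiles of 60.7, 71.2 and 74.4 in replicates 2, 3 and 4, a mean of 68.7 ± 7.15 (SD, n = 3), and summits 109 to 121 bp upstream of its own TSS. RpL30 (FBgn0086710, 2L) had 42.4, 73.4 and 40.5 in replicates 1, 2 and 4, with summits 31 to 122 bp upstream, and RpS24 (FBgn0261596, 2R) had 11.8, 5.85 and 56.5 in replicates 1, 3 and 4, at 33 bp downstream to 40 bp upstream. Both had their own TSS nearest throughout. RpLP0-like (FBgn0033485, 2R), related to the acidic stalk protein RpLP0 and 87 bp from the TSS of 14-3-3zeta, had 55.8, 21.9 and 66.5 in replicates 1, 2 and 4. RpS19a (FBgn0010412, X) had 25.7, 33.7 and 8.20 in the same libraries, with summits 514 to 527 bp upstream of its TSS. RpS24 and RpS19a had the lowest mean percentiles of the 14 genes, 24.7 ± 27.7 and 22.6 ± 13.1 (SD, n = 3).

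**Figure D2:**
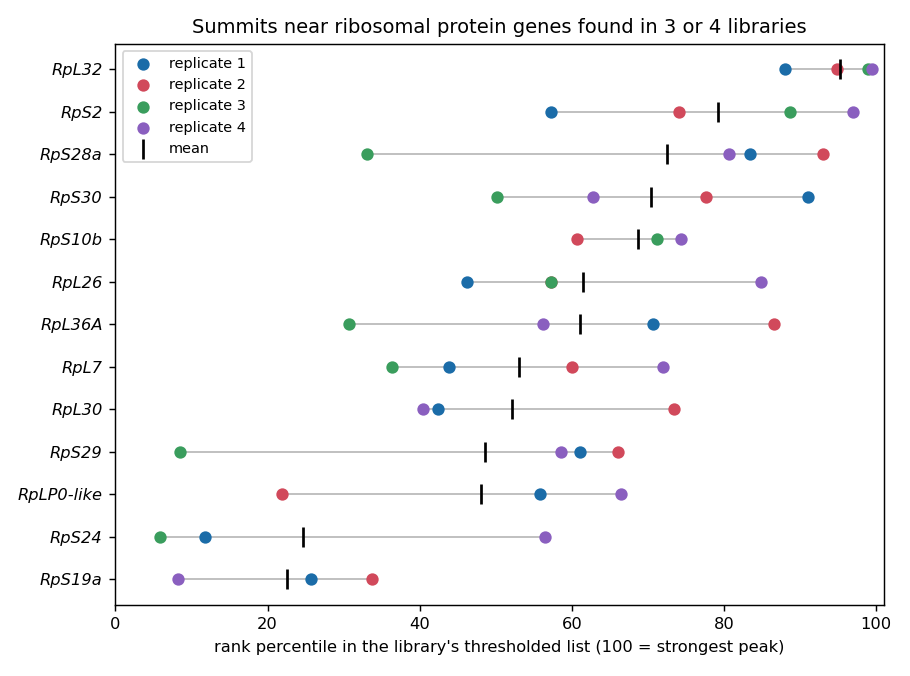
Rank percentile of the strongest summit near 13 of the 14 ribosomal protein genes found in at least 3 thresholded lists (x axis, 100 is a list's strongest peak), 1 point per library and a tick at the mean; for RpL26 the points of replicates 2 and 3 coincide at 57.3. RpL32 lies at 88.0 or above in all 4 libraries, whereas RpS29 spans 8.51 to 66.1.

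Of the 14 genes, 8 had their own TSS nearest to the strongest summit in every list that held them (RpL32, RpS2, RpS30, RpS29, RpL7, RpL30, RpS10b and RpS24). A neighbour's TSS was always nearest in 4, among them RpL36A, RpS28a and RpS19a, and RpL26 and RpLP0-like were mixed. When a summit was given to its nearest TSS alone, 9 ribosomal protein genes were in at least 3 lists, or 9.78%, and 1410 of all genes, or 10.1%. Ribosomal protein genes are often placed head to head with another gene. Such a neighbour lay within 1000 bp of 54 of the 92, and of 4628 of the 13945 protein-coding genes. Of those 54, 8 were in at least 3 lists, or 14.8%, and of the 38 without one, 6 were, or 15.8%. Over all genes the shares were 17.4% with such a neighbour and 11.2% without.

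The strongest summits of the ribosomal protein genes had median ranks close to those of all genes, except in replicate 3. Their median percentile in the thresholded lists was 56.6, 58.7, 40.1 and 56.3 in replicates 1 to 4, against 57.8, 58.2, 55.9 and 58.0 for all genes with a summit. The median distance from a TSS was 84, 187.5, 65 and 78.5 bp, against 90, 93, 99 and 81 bp for all genes. Replicate 2 had the long distance. Summits lay upstream of the TSS near 83.3%, 86.4%, 68.8% and 79.2% of the ribosomal protein genes that had one, against 71.0%, 71.2%, 74.0% and 73.5% of all such genes, so that the ribosomal protein genes were higher in all libraries but replicate 3.

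**Figure D3:**
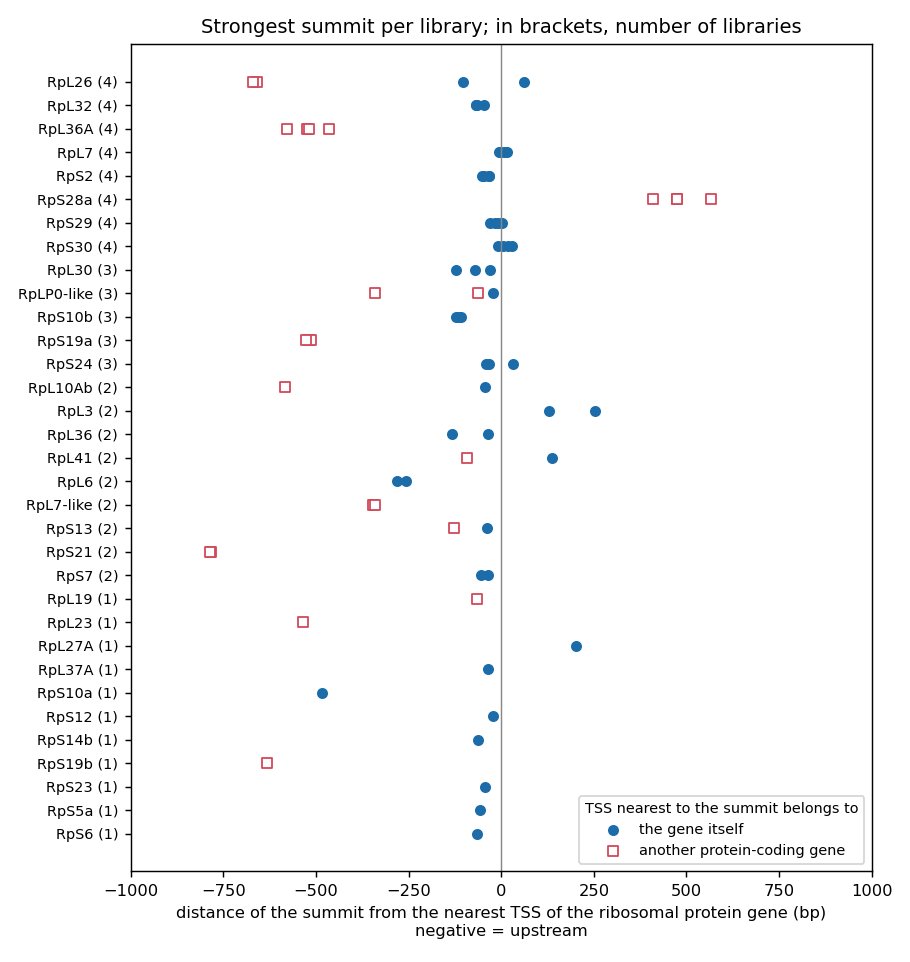
Distance in bp (x axis, negative upstream) of the strongest thresholded summit from the nearest TSS of 33 of the 34 ribosomal protein genes in at least 1 list, 1 symbol per library, filled where the gene's own TSS was nearest and open where another gene's was. The 5 genes in all 4 lists with filled symbols only (RpL32, RpS2, RpS30, RpS29 and RpL7) cluster within 69 bp of their start.

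Among the 9 genes in a pair of lists, RpS7, a small-subunit protein gene, had the highest percentiles, 79.7 and 83.9 in replicates 3 and 4, with summits 55 and 36 bp upstream of its own TSS. The others were RpL3, RpL6, RpL10Ab, RpL41, RpL36, RpS13, RpS21 and RpL7-like. Both summits were nearest to the gene's own TSS in RpL3, RpL6, RpL36 and RpS7, while those of RpS21 and RpL7-like were nearest to a neighbour's. The 11 genes in a single list were RpL19, RpL23, RpL27A, RpL37A, RpS5a, RpS6, RpS10a, RpS12, RpS14b, RpS19b and RpS23. RpS12, whose protein acts in flies upstream of Xrp1 in the competition between Minute and normal cells, had 1 thresholded summit, 21 bp upstream of its TSS at percentile 16.5 in replicate 2. In the ranked lists RpS12 had percentiles of 84.2, 84.1, 74.3 and 83.1, with the summit of replicates 1 and 3 nearer to the TSS of Adk2.

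Among members outside every thresholded list, RpL13A, a large-subunit protein gene on 3R, had the highest mean ranked percentile, 93.7 ± 2.93 (SD, n = 4), with 91.4, 91.4, 94.5 and 97.5 in replicates 1 to 4. Its summits lay 229 to 281 bp upstream, nearer to another gene's TSS in all 4 libraries, and the TSS of Dph4 is 349 bp away. This gene was chosen after its values were seen.

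**Figure D4:**
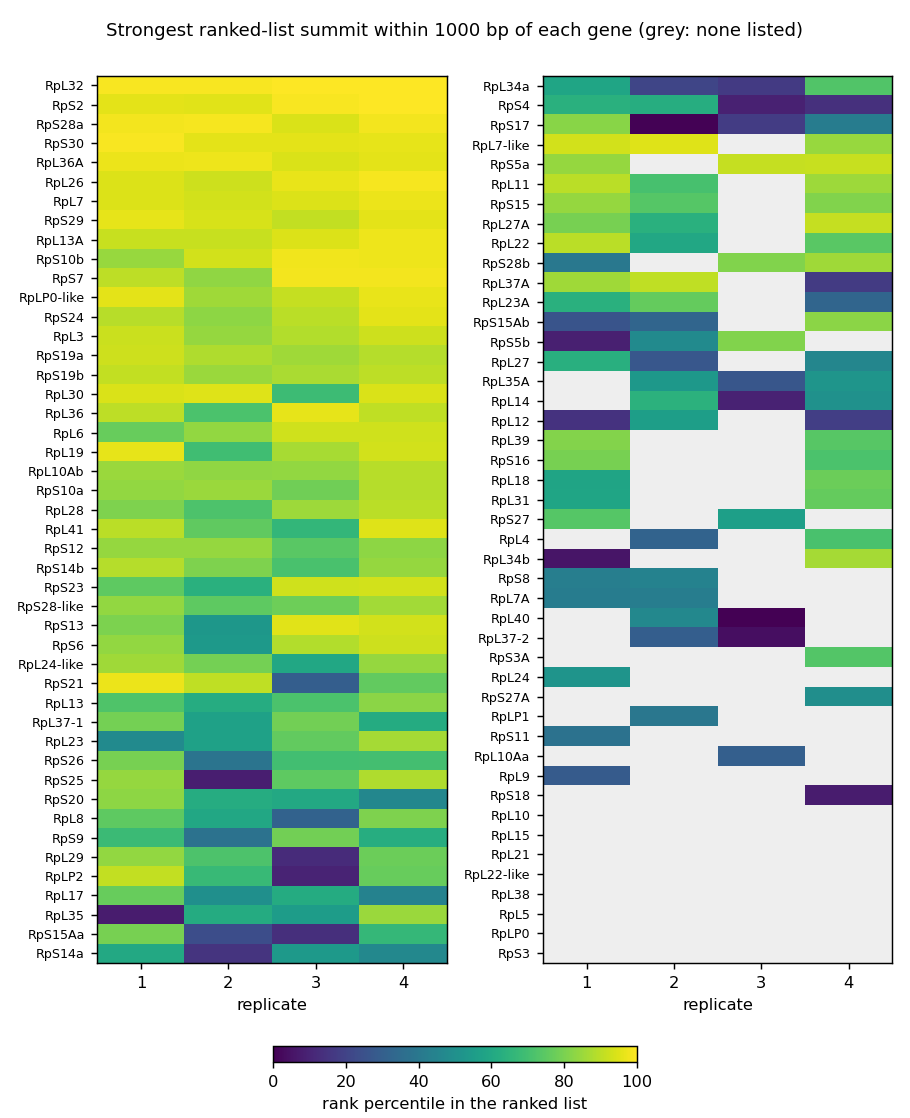
Rank percentile (colour, 0 to 100) of the strongest ranked-list summit within 1000 bp of 91 of the 92 ribosomal protein genes (rows) in replicates 1 to 4 (columns), ordered by number of lists and mean percentile; grey means that no summit was listed. RpL32 heads the order, and 8 genes at the bottom are grey in every library.

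Genes for the same protein, or for a protein and a relative whose symbol ends in -like, often differed in their lists. RpL7 was in 4 thresholded lists and RpL7-like in 2. RpLP0-like was in 3 thresholded and 4 ranked lists, whereas RpLP0, the stalk protein gene itself, was in none of either. RpS28a was in 4 thresholded lists, against 0 for RpS28b and RpS28-like, although the RpS28a summits lay at Mgat2. The gene pairs RpS10b and RpS10a, and RpS19a and RpS19b, each had 3 and 1 thresholded lists, and all 4 of these genes were in 4 ranked lists. The strongest summits of RpL7-like, RpS19a and RpS19b were nearest to another gene's TSS in every list that held them. For RpLP0-like its own TSS was nearest in 1 of 3 thresholded lists. Such counts do not separate a copy from its neighbour. RpL10Ab was in 2 thresholded lists and RpL10Aa in 0, RpS5a in 1 and RpS5b in 0, and RpS14b in 1 and RpS14a in 0. RpL22, RpL24, RpL34a, RpL37-1, RpS15Aa and their copies or relatives were in no thresholded list. In the ranked lists, RpL22 was in 3 and RpL22-like in 0, RpL24 in 1 and RpL24-like in 4, and RpL34a in 4 and RpL34b in 2. How reads that match several places were treated is not given in the sources used here, so the values of near-identical copies such as RpS14a and RpS14b, which lie near each other on X, are uncertain.

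No ranked list held a summit near 8 ribosomal protein genes, RpL5, RpL10, RpL15, RpL21, RpL22-like, RpL38, RpLP0 and RpS3. They were 8.70% of the members, against 18.8% of all protein-coding genes in no ranked list. RpL5, which binds the 5S ribosomal RNA, RpL15 and RpL21 lie 0.977, 0.843 and 1.27 Mb from the centromeric end of the arm sequence. These distances leave out chromosome 4, which holds 1 member, RpS3A, found in 1 ranked list. On the other arms RpL5, RpL15 and RpL21 were the 3 members within 2 Mb of such an end. Of all protein-coding genes there, 61.8% of 170 were in no ranked list, against 18.0% of those farther away. RpL38, RpL10 and RpLP0 lie 4.52, 5.01 and 6.03 Mb from that end, and RpS3 and RpL22-like more than 20 Mb.

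Ribosomal protein genes also differ in their number of start sites, their position and what their introns hold. Members with 1 annotated TSS were in at least 3 lists in 4 of 48 cases (8.33%), those with 2 TSS in 7 of 29 (24.1%) and those with 3 or more in 3 of 15 (20%). The shares of all genes in the same classes were 9.18%, 20.1% and 35.1%. By chromosome arm, 4 of 19 members on 2L, 3 of 21 on 2R, 1 of 14 on 3L, 4 of 23 on 3R, 2 of 14 on X and 0 of 1 on 4 were in at least 3 lists. The shares of all genes on those arms were 12.8%, 14.5%, 13.3%, 12.9%, 13.3% and 6.25%. Of 28 members with a small nucleolar RNA gene inside them on the same strand, 3 were in at least 3 lists (10.7%). Of the 84 such host genes of any kind, these 28 members included, 24 were (28.6%). Ribosomal protein genes are short, with a median length of 1174.5 bp in the 14 genes, 1391.5 bp in the 58 in no thresholded list and 1315 bp in all 92, against 2166 bp in all protein-coding genes. The 1854 protein-coding genes in at least 3 lists had a median of 5316 bp.

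Promoter motifs were counted from 250 bases before to 50 bases after the most upstream TSS. The DRE and the other motifs apart from the initiator were searched on both strands, and every DRE contains the core ATCGAT, so these counts overlap. The core, added after the data were seen, was in 11 of the 14 genes in at least 3 lists (78.6%), in 10 of the 20 in 1 or 2 lists (50%) and in 17 of the 58 in none (29.3%). Over all protein-coding genes the shares in the same classes were 42.3%, 33.4% and 17.9%, and 23.3% of all promoters held it against 41.3% of all ribosomal protein promoters. The full DRE was in 7 of the 14, 10 of the 20 and 11 of the 58. Among members it was thus as frequent in genes with 1 or 2 lists as in those with 3 or 4. Its shares of all protein-coding genes in the same classes were 20.3%, 16.2% and 6.07%. The full DRE was in 28 of the 92 members (30.4%) and in 9.36% of all promoters. Of the 16 members in at most 1 ranked list, 1 held the core and none the full DRE, against 13.5% and 2.88% of all such genes.

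The same letters lay close to some of the summits themselves. Within 50 bp of the strongest summit, ATCGAT was present in 6 of 18, 7 of 22, 8 of 16 and 12 of 24 ribosomal protein genes in replicates 1 to 4, or 33.3%, 31.8%, 50% and 50%. Among all protein-coding genes with a summit within 1000 bp of a TSS, the shares for the strongest summit were 23.3%, 24.8%, 34.6% and 33.3%. Ribosomal protein genes had the higher share in each library, on few genes, and replicates 3 and 4 had the higher shares in both sets. Over every thresholded summit, those far from start sites included, the shares were 12.3%, 12.7%, 20.3% and 19.2%. The genes with such a match include RpL32, RpS2, RpS30, RpS29 and RpS10b, while RpL7 and RpL30 had no ATCGAT within 1000 bp of any summit. RpL36A, RpS19a, RpS28a and RpL26, also in at least 3 lists, had none within 50 bp of their strongest summits. Of these, RpL36A, RpS19a and RpL26 are among the genes counted above with the core in the promoter. A match describes the letters only, and no factor's binding was measured at it.

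The TCT initiator, scored as CTTT with C or T on each side on the sense strand and its C within 10 bases of the TSS, was common in the family both with and without peaks. At any annotated TSS, a setting chosen after the data were seen, it was found in 75 of the 92 members (81.5%), against 4.09% of all protein-coding genes. It was present in 10 of the 14 genes in at least 3 lists (71.4%), 17 of the 20 in 1 or 2 (85.0%) and 48 of the 58 in none (82.8%). At the most upstream TSS alone the counts were 4 of 14 (28.6%), 8 of 20 (40%) and 34 of 58 (58.6%). The shares of all protein-coding genes in the same classes were 2.54%, 2.77% and 2.78%. In that setting the share among members was thus lower in the classes with more lists. The core of Motif 1 was in 14 of the 92 members (15.2%) and in 7.70% of all promoters. It was in 2 of the 14 genes in at least 3 lists, against 9.49% of all protein-coding genes in at least 3. The E-box CACGTG, the binding sequence of Myc with Max, was in 8 members (8.70%) and in 4.20% of all promoters. GAGAG, recognised by GAGA factor, was the scarcer in ribosomal protein genes, in 16 members (17.4%) against 29.7% of all promoters.

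**Figure D5:**
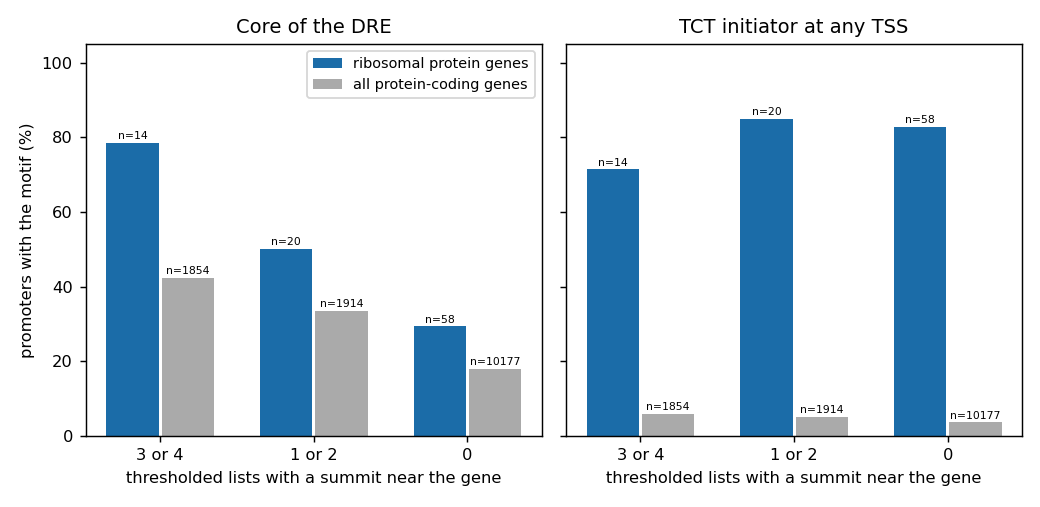
Share of promoters (y axis, %) holding the DRE core ATCGAT from 250 bases before to 50 after the most upstream TSS (left) or a TCT initiator at any TSS (right), for ribosomal protein genes and for all protein-coding genes, by the number of thresholded lists with a summit near the gene (x axis). The core was in 78.6%, 50% and 29.3% of ribosomal protein promoters, and the initiator in 71.4%, 85.0% and 82.8%.

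Other gene sets of the translation and protein turnover machinery gave values on both sides of these. Of all protein-coding genes 13.3% were in at least 3 lists, and their mean share per list was 16.9%. Of 73 mitochondrial ribosomal protein genes 12 were in at least 3 lists (16.4%), close to the 15.2% of the cytosolic genes. The mean share of the mitochondrial genes per list was 21.2% ± 2.37 (SD, n = 4 libraries). Of 48 proteasome genes 5 were (10.4%). Of 44 genes on a hand-written list named for ribosome biogenesis and translation 12 were (27.3%), with a mean share of 34.1% ± 7.42. The name is loose, since the list also holds Brr2, matched from the older symbol l(3)72Ab, and sta. RIOK2, a kinase that acts in maturation of the small subunit, led that set with a mean percentile of 97.4 ± 2.25 (SD, n = 4), followed by eIF2gamma at 80.6 and eIF3a at 77.1. Of 19 regulators of growth and of the Minute response 8 were (42.1%), led by Thor, the inhibitor of eIF4E, at 88.8, Myc at 81.6 and brat at 77.8, each in 3 lists. The leading mitochondrial genes were mRpL4, mRpL33 and mRpL30 at 90.2, 83.5 and 78.6, and the leading proteasome genes Prosalpha7, Rpn6 and Rpn10 at 90.7, 90.5 and 63.8, each in all 4 lists. With each summit given to its nearest TSS alone, 5 mitochondrial (6.85%) and 4 proteasome genes (8.33%) were in at least 3 lists. So were 9 biogenesis and translation genes (20.5%) and 8 growth regulators (42.1%). The shares of cytosolic and of all genes were then 9.78% and 10.1%.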

How the data were processed

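Peak positions are on dm6, per the labels. Aligner and peak calling software were not given in the sources used here. The deposited lists were called per library, and the signal value of each peak is the authors' own, with no unit stated. Peaks outside the major arms, 3 of them in a thresholded list (replicate 3), were dropped. Start sites came from release 115 of Ensembl, annotation BDGP6.54, and bases from RefSeq's Release 6 genome. Counts and percentiles were computed with Python 3.11.15, numpy 2.4.6, pandas 2.3.3 and matplotlib 3.10.9, and the matching of summits to TSS was tested on simulated data. With 1 group, no comparison was tested, and members are described by counts beside those of all protein-coding genes. Dixon's criterion marked libraries far from the others. Coordinates are 1-based. No 2 libraries shared an identical peak.

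Genes named are the members in at least 3 thresholded lists, members with a second copy, those in 1 or 2 lists, the 3 leading genes of each comparison list, RpL32 and RpS12. RpL13A and the 8 members in no ranked list were named after their values were seen. Of the hand-written comparison lists, 41 biogenesis and translation names matched by symbol and 3 by an older symbol, with 1 unmatched, and 17 and 2 of the growth list. The members and lists were chosen with earlier results of these data known. Of 14 lists of the whole series, 2 served as alternatives, the conservative and the longest; the other 12 were not used. The values of 1 member in all 4 thresholded lists are not reported here, though it is included in the counts.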

Additional observations from a re-analysis of the deposited data

Results flagged for a closer look

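Dixon's criterion, the gap of 1 library to the nearest value relative to the whole range, was applied to 25 sets of 4 values. They were 23 sets of percentiles of the 14 genes in at least 3 thresholded lists and 2 sets of shares of ribosomal protein genes, and 4 of the percentile sets had 1 library far from the other 3. For independent, normally distributed values chance gives about 1 in 20 per set. The sets here share genes and peaks, so that the 4 of 25 cannot be judged against this rate. RpS29 stood at 8.51 in the thresholded list of replicate 3, against 61.1, 66.1 and 58.6 in the other libraries. RpL30 stood at 68.5 in the ranked list of replicate 3, against 94.5, 95.3 and 94.2. That value belongs to another summit, 733 bp upstream of its TSS and the only one listed within 1000 bp in replicate 3. In replicates 1, 2 and 4 the summits lay 122, 72 and 31 bp upstream. RpS28a stood at 94.4 in the ranked list of replicate 3, against 98.4, 98.7 and 98.1. RpS30 stood at 99.1 in the ranked list of replicate 1, against 96.0, 95.9 and 96.4. The flagged library was replicate 3, as the lowest, in 3 of these 4 sets, and replicate 1, as the highest, in RpS30.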

How the results depend on the processing

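The count of 14 ribosomal protein genes in at least 3 thresholded lists became 9 with the nearest TSS only (9.78%, against 10.1% of all genes), 9 with the upper 50% of each list by signal (7.31% of all genes), 9 in all 4 libraries (8.03%), 23 in at least 2 (25.0%, against 19.2%), 26 in the conservative list (28.3%, against 23.1% of all genes) and 50 in the longest (54.3%, against 44.3%). Leaving out each library in turn and asking for at least 2 of the 3 that remain gave 17 to 19 (18.5% to 20.7%, against 15.0% to 17.6%). It was 10, 11 and 19 with distance limits of 200, 500 and 2000 bp (10.9%, 11.96% and 20.7%, against 9.34%, 11.2% and 16.4%), and 13 of 87 without the genes named -like. The mean thresholded share of 21.7% became 27.2% at 2000 bp, 14.4% at 200 bp, 14.4% with the nearest TSS only and 11.7% for the upper 50%, against 20.5%, 12.2%, 13.1% and 9.80% of all genes. Leaving out a library gave 20.3% to 23.2%. The mean ranked share of 74.7% became 64.4% at 500 bp, 85.3% at 2000 bp, 53.3% at 200 bp, 59.0% with the nearest TSS only and 60.6% for the upper 50%, against 52.6%, 73.9%, 40.7%, 53.4% and 48.0% of all genes, and 72.8% to 78.3% without 1 library. The share of ribosomal protein genes stayed above that of all genes in each of these means, and below it in the count with the nearest TSS only. The 200 bp limit, the ATCGAT core with both its backgrounds at summits and the TCT initiator at any TSS were chosen after seeing the data. The causes were not tested. No paired analysis was possible because the labels give 1 group. Lists without read counts give no depth, so a gene outside them may lie below the detection limit of a library.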
